A study of Mus musculus with 9 samples.

Results

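Mast cells are tissue leukocytes that store proteases in granules and release them when the receptor for immunoglobulin E is cross-linked. In the mouse, the mucosal type, found in epithelia, is marked by the chymases Mcpt1 and Mcpt2, and the connective tissue type by the chymases Mcpt4 and Cma1, the tryptase Tpsb2 and carboxypeptidase Cpa3. Both types depend on the receptor tyrosine kinase Kit, carry the immunoglobulin E receptor chains Fcer1a and Ms4a2, and make histamine with the enzyme Hdc. These 10 genes were taken by symbol from the 54453 rows of a gene count table, and all 10 had a row.

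The table came from polyA RNA of 9 whole frozen pancreatic tumors of the KPC strain, a genetically engineered mouse model of pancreatic ductal adenocarcinoma. In 4 tumors the genotype was written KPF/+C and named Scrib WT (tumors 2, 3, 6 and 9), and in 5 it was KPF/+CSF/F and named Scrib null (tumors 7, 14, 15, 18 and 23). Both groups share the KPF/+C part, so the comparison is on that background, and it asks how tumors labelled null for the polarity scaffold Scrib differ from those labelled WT. If S F/F marks a loxP-flanked Scrib allele, only cells that had Cre recombinase would lose it, and host cells such as leukocytes would keep it. What each letter stands for, the promoter of any Cre recombinase, and the age of the mice are not given in the sources used here. Separate mice are not stated either, so a p-value measures the spread between these tumors, which may be partly technical.

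Estimated counts summed to between 10145830 and 27596832 per tumor. Values are given as CPM, counts scaled to a common library size after TMM normalization, and 1 count was worth 0.0342 to 0.0953 CPM. Scrib mRNA itself ranged from 44.0 to 88.4 CPM under the WT label and from 36.9 to 102 CPM under the null label, so it did not set the labels apart and every direction below is between tumors as labelled. The tissue label was met by ductal keratin and adhesion genes, 8 genes that summed to 6708 to 13020 CPM in every tumor, with Krt19 at 860 to 2371 CPM.

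The 10 genes did not behave as 1 cell type's set. In the tumors labelled WT, the mean of Mcpt1 and of Mcpt2 was above that of Kit (18.1 CPM) and Hdc (10.7 CPM). In those labelled null, the mean CPM of Mcpt1 (14.4), Mcpt2 (14.1) and Kit (16.3) was similar. CPM is not divided by transcript length, which is 5241 bases for Kit, 1014 for Mcpt1 and 1061 for Mcpt2. Per kb, null 7, 14, 15, 18 and 23 had Kit at 0.221, 2.59, 3.67, 2.10 and 7.00 CPM. Mcpt1 was at 2.19, 33.8, 11.5, 7.89 and 15.8 CPM per kb in the same tumors. Mcpt2 was at 1.90, 11.7, 18.6, 10.7 and 23.4 CPM per kb, so both chymases were above Kit in each null tumor. The 6 others, Mcpt4, Cma1, Tpsb2, Cpa3, Fcer1a and Ms4a2, lay between 0 and 1.81 CPM in every tumor. Tumor WT 3 held 29272 estimated counts of Mcpt2 and 2894 of Mcpt1, beside 0 counts of Cpa3, Tpsb2, Fcer1a and Ms4a2, where a count of 0 allows up to 0.257 CPM. Of these, Fcer1a and Ms4a2 are genes of both mast cell types. The same tumor had the highest Hdc (26.9 CPM), Kit at 8.75 CPM, and 13 and 14 counts of the mast cell genes Mrgprb2 and Rgs13. The levels of Mcpt1 and Mcpt2 were not matched by those of the receptor chains, so they are described here as chymase transcripts and not as a number of mast cells. In whole tumors, fewer cells of a type and less RNA per cell cannot be told apart.

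**Figure D1:**
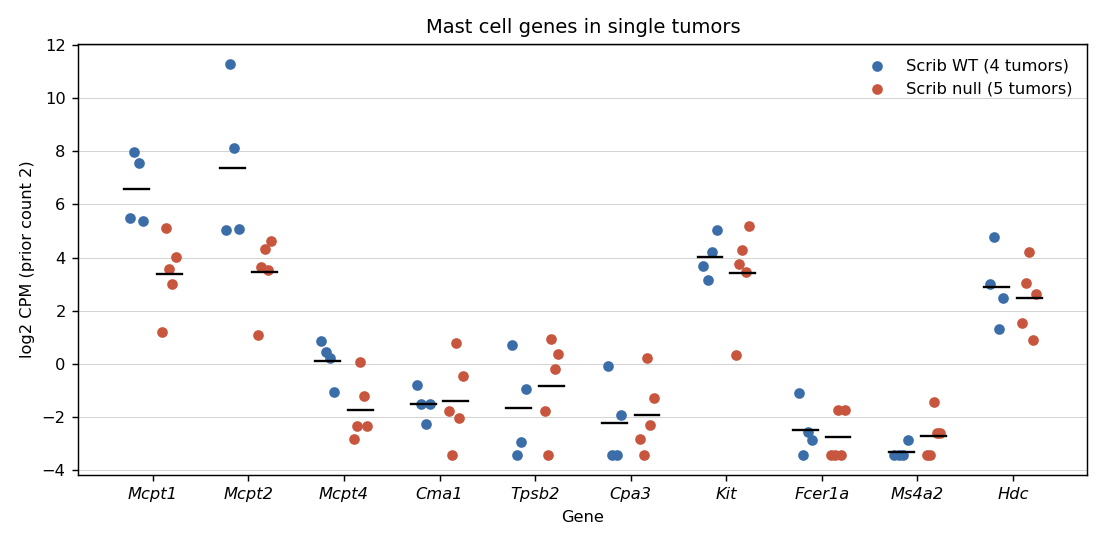
Level of each of the 10 genes (x axis) as log2 CPM with a prior count of 2 (y axis), 1 point per tumor, blue for the 4 tumors labelled Scrib WT and red for the 5 labelled Scrib null, with black bars at the group means. The groups of Mcpt1 and Mcpt2 do not overlap, with the WT points above those of the other genes on average. Their null points are level with Kit on this scale, which is not divided by transcript length. Cpa3, Fcer1a and Ms4a2 sit at the bottom of the scale.

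Mcpt1, Mcpt2, Mcpt4 and Cma1 are neighbours in the chymase locus of chromosome 14 on GRCm38 (GENCODE M21), a cluster of related serine protease genes that runs on into the granzymes. Mcpt1 lies at 56017971 to 56020384 on the plus strand, Mcpt2 at 56042041 to 56044642 on the plus strand, Mcpt4 at 56059629 to 56062313 on the minus strand and Cma1 at 55941451 to 55944675 on the minus strand. No other annotated gene overlaps these 4. The coding sequence of Mcpt2 was 81.2% identical to that of Mcpt1 and that of Mcpt4 86.7%, so the first 72 coding bases are shown for a view of how close the genes are. They span an intron in each gene, come from the GENCODE M21 transcripts, and carry in capitals the bases that differ from Mcpt1.
Mcpt1 (chr14:56017999-56018577, plus strand): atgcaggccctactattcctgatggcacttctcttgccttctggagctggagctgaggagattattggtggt
Mcpt2 (chr14:56042154-56042717, plus strand): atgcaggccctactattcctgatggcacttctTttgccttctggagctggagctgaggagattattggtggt
Mcpt4 (chr14:56061708-56062274, minus strand): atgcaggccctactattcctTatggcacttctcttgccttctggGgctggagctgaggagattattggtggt
Mcpt2 differed from Mcpt1 at 1 and Mcpt4 at 2 of these 72 bases, but over whole transcripts few stretches were shared. Of 984 words of 31 bases in the Mcpt1 transcript, 34 also occurred in that of Mcpt2 and 22 in that of Mcpt4, and 0 occurred in that of Cma1. The estimated counts of these chymases depend to that extent on how reads were shared out, and for Mcpt4, which had 113 counts in all 9 tumors against 10851 for Mcpt1, the part of such reads was not tested.

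The promoter windows of Mcpt1 and Mcpt4 are shown because the levels of these genes lay far apart while the sequences before their starts did not. Both are the 150 bases before the RefSeq start (GRCm38.p6), and the capitals mark a run of 53 bases that the windows share exactly.
Mcpt1 (chr14:56017814-56017963, plus strand): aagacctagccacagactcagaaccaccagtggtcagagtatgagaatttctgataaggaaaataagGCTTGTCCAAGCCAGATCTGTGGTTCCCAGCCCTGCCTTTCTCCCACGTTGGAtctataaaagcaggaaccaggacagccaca
Mcpt4 (chr14:56062311-56062460, minus strand): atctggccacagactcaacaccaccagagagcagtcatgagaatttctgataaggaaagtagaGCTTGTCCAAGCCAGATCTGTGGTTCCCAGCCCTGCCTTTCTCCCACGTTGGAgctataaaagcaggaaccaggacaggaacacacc
Aligned over 154 columns, 131 were identical (85.1%). Of all 32851 windows in the RefSeq table, only these 2 held the run of 53 bases in the 250 bases before the start. Both windows also held the letters GATAAG, the core bound by GATA factors, and TATAAA, the TATA box core, which occur on either strand in 3.75% and 7.57% of all windows of 150 bases. Windows of 8 of the 10 genes were in the table, and Mcpt2 and Tpsb2 were not among them. Per kilobase of transcript, the median level over the 9 tumors was 33.8 CPM per kb for Mcpt1 and 0.352 CPM per kb for Mcpt4.

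Mcpt2, a chymase-like granule protease of mucosal mast cells, had the widest range. Its level was 32.5, 2511, 277 and 33.3 CPM in tumors WT 2, 3, 6 and 9, and 2.02, 12.4, 19.8, 11.3 and 24.8 CPM in tumors null 7, 14, 15, 18 and 23. Every tumor labelled WT was above every tumor labelled null, and WT 3 stood far above the rest. Group means were 713 ± 1204 CPM (SD, n = 4) for WT and 14.1 ± 8.71 CPM (SD, n = 5) for null. In the edgeR quasi-likelihood fit over 16169 genes null tumors differed from WT tumors by a log2 fold change of -5.66 (SE 1.32, 95% confidence interval -8.59 to -2.73), and it did not pass after Benjamini-Hochberg adjustment (edgeR adjusted p = 0.197). Without tumor WT 3 the log2 fold change was -3.0 (edgeR adjusted p = 0.327). The exact two-sided permutation test of log2 CPM gave p = 0.00794, the smallest that 4 against 5 tumors allow, and adjusted over all 16169 genes it gave 0.173.

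Mcpt1, the chymase whose protein is released into blood during gut worm infection, followed the same order of groups with a smaller range. It had 44.5, 248, 186 and 41.2 CPM in the tumors labelled WT and 2.22, 34.3, 11.7, 8.0 and 16.0 CPM in those labelled null, in the tumor order given above. The groups again did not overlap, but the gap between them, from 34.3 CPM in null 14 to 41.2 CPM in WT 9, was narrow. Means were 129.9 ± 104 CPM (SD, n = 4) and 14.4 ± 12.2 CPM (SD, n = 5). Its log2 fold change was -3.17 (SE 0.76, 95% confidence interval -4.85 to -1.49, edgeR adjusted p = 0.197), and the exact two-sided permutation p was 0.0159, or 0.208 adjusted over all genes.

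Mcpt2 was not a fixed multiple of Mcpt1. Per transcript length the ratio of Mcpt2 to Mcpt1 was 9.67 in WT 3 and 0.347 in null 14, and 0.698 to 1.62 in the other 7 tumors. Tumor null 14 was the highest of the 5 null tumors for Mcpt1 and lay below null 15 and null 23 for Mcpt2.

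Of the 10 genes, 6 passed the filter on low counts (Mcpt1, Mcpt2, Mcpt4, Tpsb2, Kit and Hdc), and Cma1, Cpa3, Fcer1a and Ms4a2 did not. None of the 6 passed the adjusted threshold of 0.05 in edgeR, a threshold that 0.0124% of all genes passed as lower and 0 genes as higher. At an unadjusted edgeR p under 0.05, Mcpt1, Mcpt2 and Mcpt4 were lower in the tumors labelled null, where 10.0% of all genes were lower and 7.64% higher. Mcpt1 and Mcpt2 were the members whose groups did not overlap, with the null group below, which held for 3.48% of all genes (6.91% in either direction). By the exact two-sided permutation test, Mcpt1, Mcpt2 and Mcpt4 had an unadjusted p under 0.05 with the null group lower, as did 8.02% of all genes (16.8% in either direction). DESeq2 called Mcpt1 and Mcpt2 as lower (DESeq2 adjusted p = 0.00259 and 0.00105), beside 2.34% of all genes (3.58% in either direction). It did not call Mcpt4 (DESeq2 adjusted p = 0.200). Limma-voom called none of these genes (limma-voom adjusted p = 0.158 for Mcpt1, 0.253 for Mcpt2 and 0.305 for Mcpt4). It called 0.0309% of all genes as lower and 0.0371% in either direction. With limma-voom the log2 fold change was -2.69 for Mcpt2 and -2.66 for Mcpt1.

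**Figure D2:**
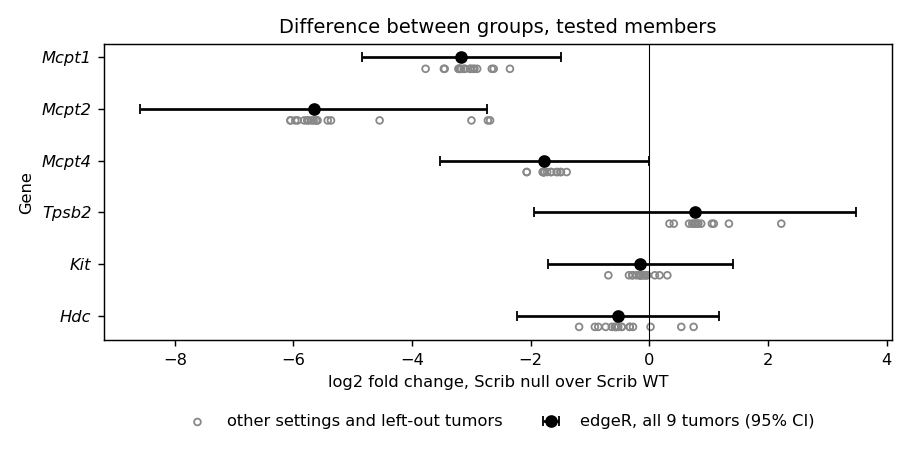
Log2 fold change, Scrib null over Scrib WT (x axis), for the 6 genes that passed the filter (y axis). Black points are the edgeR fit of all 9 tumors with 95% confidence intervals, and open circles are the other settings and the fits with tumors left out; the circles of Mcpt2 run from -6.05 to -2.69 and those of Kit and Hdc lie on both sides of 0.

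Of the connective tissue type proteases, Mcpt4, the chymase closest in activity to human chymase, had a negative log2 fold change at low counts. It had 18, 15, 28 and 9 counts (1.72, 1.29, 1.08 and 0.39 CPM) in the WT group and 1, 2, 28, 9 and 3 counts (0.05, 0.11, 0.96, 0.33 and 0.11 CPM) in the null group. Tumors null 15 and WT 9 made the groups overlap. Its log2 fold change was -1.77 (SE 0.80, edgeR adjusted p = 0.282; exact two-sided permutation p = 0.0317, or 0.251 adjusted over all genes). With 1 tumor left out the exact permutation p was over 0.05 in 7 of 9 cases (0.0536 to 0.0571), all but those without WT 9 or null 15. The unadjusted edgeR p was over 0.05 in the same 7 cases (0.0757 to 0.121).

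Tpsb2, a tryptase that forms tetramers on heparin, went the other way in value, with no support from the test. It had 16, 0, 1 and 10 counts in the WT group and 4, 0, 53, 21 and 34 counts in the null group. Its log2 fold change was 0.77 (SE 1.23, 95% confidence interval -1.94 to 3.48, edgeR adjusted p = 0.751). It was 2.22 without WT 2, 0.41 without WT 3 and 0.34 without WT 6, and the gene did not pass the filter without null 15, null 18 or null 23. WT 2, null 15, null 18 and null 23 held most of its counts, and WT 3 held none.

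Cma1, a chymase with elastase activity in the mouse, had 5, 3, 3 and 6 counts in the WT group and 4, 0, 48, 4 and 18 counts in the null group. Cpa3, the carboxypeptidase stored with these chymases, had 9, 0, 0 and 4 counts in the WT group and 1, 0, 31, 3 and 9 counts in the null group. For both genes null 15 was the highest tumor and null 14 held 0 counts. The differences between groups lay within the spread between tumors, with an exact two-sided permutation p of 0.889 for Cma1 and 0.778 for Cpa3.

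Cpa3, Cma1 and Tpsb2 thus ranked the tumors unlike Mcpt1 and Mcpt2. Tumors null 15 and WT 2, the highest for both Cpa3 and Tpsb2, had Mcpt2 at 19.8 and 32.5 CPM. Tumors WT 3 and WT 6, the highest for Mcpt2, had 0 counts of Cpa3 each, 0 and 1 of Tpsb2, and 3 of Cma1 each. Across the 9 tumors, Pearson's r of log2 CPM between Mcpt2 and Mcpt1 was 0.91 (Spearman's rho 0.933, and r 0.859 without WT 3 and null 7). Between Mcpt2 and Cpa3 it was -0.29 (rho -0.17, and r -0.27 without the same tumors). Between Cpa3 and Tpsb2 it was 0.93 (rho 0.97, and r 0.949 without null 15 and WT 2). The remaining connective tissue type protease, Mcpt4, went otherwise. Its r with Mcpt2 was 0.68 (rho 0.767, and r 0.504 without WT 3 and null 7). With Cpa3 its r was 0.297 (rho 0.17, and r -0.413 without null 15 and WT 2). These values are descriptions over tumors that share library depth and composition. Those of Cpa3 rest on 57 counts in all, with 0 counts in 3 of 9 tumors.

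Summed per kilobase of transcript, the mucosal type pair Mcpt1 and Mcpt2 made up most of the granule protease level in every tumor. The share of this pair among the 6 proteases was 95.2, 99.95, 99.75 and 98.6% in WT 2, 3, 6 and 9, and 90.7, 99.8, 87.0, 94.3 and 95.5% in null 7, 14, 15, 18 and 23. The groups overlapped: null 14, with 2 connective tissue type counts in all, lay above WT 2, WT 6 and WT 9, and null 23 lay above WT 2. As shares of counts, the lowest was 85.2% in null 15 (exact 95% Clopper-Pearson interval 82.9 to 87.3%, 1081 counts) and the widest interval was that of null 7 (81.3 to 94.8%, 94 counts). These intervals cover counting error only. The mucosal sum ran from 4.09 to 2612 CPM per kb and the connective tissue sum from 0.0949 to 4.51 CPM per kb.

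**Figure D3:**
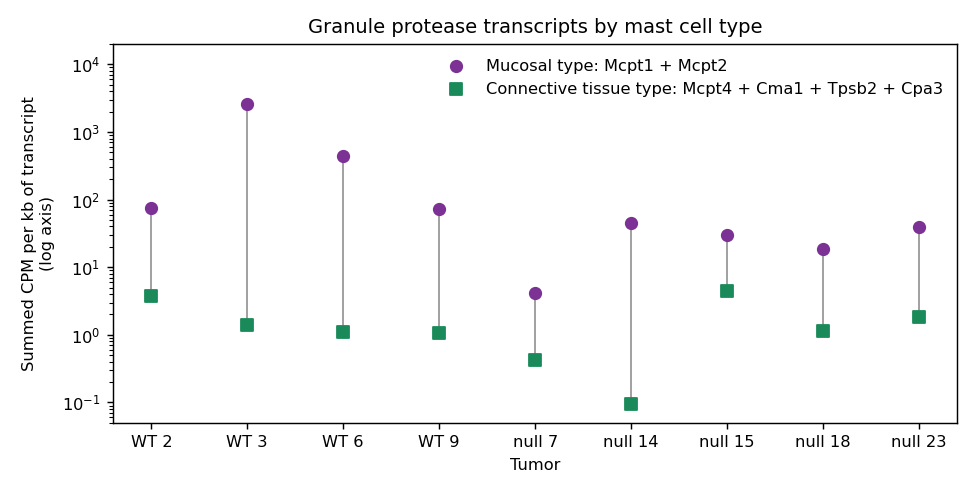
Summed level per kb of transcript (y axis, log scale) of the mucosal type proteases (purple circles) and the connective tissue type proteases (green squares) in each of the 9 tumors (x axis). The mucosal sum is above the connective tissue sum in each tumor, by 6.70 times in null 15 and 1869 times in WT 3, and the green squares are highest in null 15 and WT 2.

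The receptor genes of the immunoglobulin E pathway were near the limit of detection. Fcer1a, the ligand-binding alpha chain, had 4, 0, 2 and 1 counts in the WT group and 0, 0, 6, 0 and 6 counts in the null group. Ms4a2, the signal-amplifying beta chain, had 0, 0, 0 and 1 counts in the WT group and 0, 0, 8, 2 and 2 counts in the null group. A difference was not detectable at this depth (exact two-sided permutation p = 0.794 and 0.246).

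Kit, the stem cell factor receptor, was measured in every tumor and did not follow the proteases. It had 12.8, 8.75, 18.2 and 32.7 CPM in the WT group and 1.16, 13.6, 19.2, 11.0 and 36.7 CPM in the null group. The lowest tumor, null 7, and the highest, null 23, were both labelled null, and the groups overlapped. Its log2 fold change was -0.15 (SE 0.71, 95% confidence interval -1.71 to 1.41, edgeR adjusted p = 0.926), and its sign turned without WT 9 (0.30) or without null 7 (0.17). Other cells that can express Kit were looked at by their markers: the melanocyte gene Dct had 0 to 2 counts in any tumor, while Ano1, a chloride channel of interstitial cells of Cajal that epithelia also express, had 58.7 to 584 CPM. The part of such cells in the Kit level was not tested.

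Hdc, the histamine-forming enzyme, had 7.91, 26.9, 2.38 and 5.55 CPM in the WT group and 2.82, 8.14, 18.2, 1.78 and 6.06 CPM in the null group. The groups overlapped, and the log2 fold change of -0.53 (SE 0.77, 95% confidence interval -2.23 to 1.18, edgeR adjusted p = 0.729) was 0.54 without WT 3. Tumors WT 3 and null 15, the highest for Hdc, were also the highest for the neutrophil gene S100a8, at 768 and 173 CPM against 13.2 to 83.8 CPM in the other 7. Chga, a marker of endocrine cells, some of which make histamine, was 0.772 CPM in WT 3 and 12.3 CPM in null 15. The part of neutrophils or endocrine cells in the Hdc level was not tested.

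The rest of the chymase locus was then read in the same tumors. Of 11 neighbouring protease genes 5 passed the filter, and all 5 had a negative log2 fold change (median -1.20, against -0.04 over all genes tested). Of these, 0 passed the adjusted edgeR threshold, and 1 was lower at an unadjusted p under 0.05, beside 10.0% of all genes. Mcpt8, known as a basophil protease, lies at 56082166 to 56085273 on the minus strand and holds the miRNA gene Mir6949. It had 45.5, 678, 117 and 31.8 CPM in the WT group and 8.16, 135, 50.6, 53.8 and 22.9 CPM in the null group (log2 fold change -2.01, SE 0.95, edgeR adjusted p = 0.297). Gzme, a granzyme at 56117626 to 56120625 on the minus strand, had 7.53, 119.6, 47.3 and 6.59 CPM in the WT group and 1.66, 24.1, 78.8, 33.7 and 10.3 CPM in the null group (log2 fold change -0.60, edgeR adjusted p = 0.764). Tumor WT 3 was the highest for both genes, as it was for Mcpt1 and Mcpt2. For Gzmc the log2 value was -1.51 (edgeR adjusted p = 0.282), and for Ctsg, a neutrophil and monocyte protease, it was -1.20 (edgeR adjusted p = 0.683). Reads of Gzme and Gzmd could be shared, since their transcripts were 90.0% identical over the aligned columns.

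**Figure D4:**
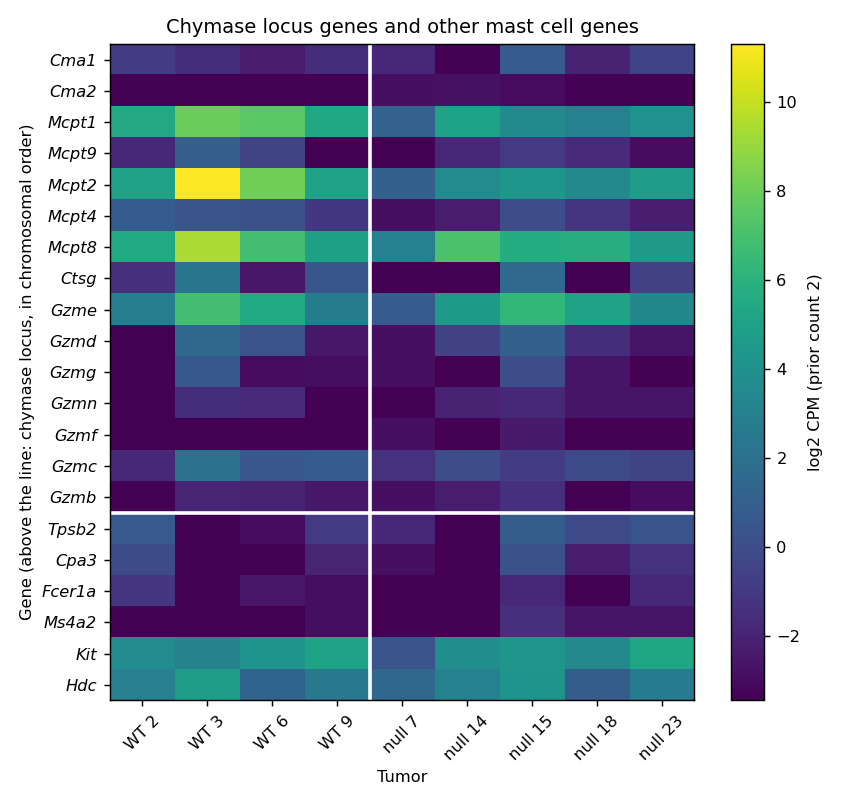
Log2 CPM with a prior count of 2 (colour) of 15 protease genes of the chymase locus in chromosomal order and, below the white line, 6 mast cell genes from elsewhere in the genome (rows) in the 9 tumors (columns, 4 labelled WT then 5 labelled null). Mcpt1, Mcpt2, Mcpt8 and Gzme are bright against dark rows on either side of them, and Cpa3, Fcer1a and Ms4a2 are dark in nearly all tumors.

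Basophils share Fcer1a, Ms4a2 and Cpa3 with mast cells, and their markers were read beside Mcpt8. The basophil protease Prss34 had 0 to 36 counts, Cd200r3 had 1 to 7 counts and Il4 had 0 or 1 count in any tumor. The high Mcpt8 of WT 3 stood beside 7 counts of Prss34 and 2 of Cd200r3. Summed over 6 basophil genes the level was 126 to 813 CPM in the WT group and 81.5 to 266 CPM in the null group, nearly all of it from Mcpt8, Il18rap and Il3ra, which had log2 fold changes of -2.01, -0.97 and 0.42 (edgeR adjusted p = 0.297, 0.352 and 0.304).

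Markers of other cells were read beside Mcpt2, each as a whole list. The 11 neutrophil genes reached a summed level of 3402 CPM in WT 3, while WT 2, 6 and 9 had 507 to 1308 CPM and the null tumors 137 to 1219 CPM. Over the 9 tumors Pearson's r between Mcpt2 and S100a8 was 0.80 (rho 0.783, and r 0.213 without WT 3 and null 7). The part of neutrophils in the Mcpt2 level was not tested. Intestinal mucosa, where mucosal type mast cells live, was read from 13 epithelial genes, which summed to 187 to 568 CPM in the WT group and 36.0 to 521 CPM in the null group. Of 8 tested, 7 had a negative log2 fold change (median -0.43) and 3 were lower at an unadjusted p under 0.05, beside 10.0% of all genes. These 3, named after their values were seen, were Alpi (-4.90, SE 1.17), Rbp2 (-2.27, SE 0.56) and Apoa1 (-5.72, SE 1.60), with edgeR adjusted p from 0.197 to 0.204. Alpi, an intestinal alkaline phosphatase, had 21.7, 1.37, 0.884 and 2.69 CPM in the WT group and at most 0.372 CPM in the null group, so its groups did not overlap. The groups of Fabp1 and Fabp2, which had low counts and did not pass the filter, did not overlap either. Of the 8 tested genes, groups did not overlap for 1, beside 3.48% of all genes with the null group lower (6.91% in either direction). The enterocyte gene Fabp2 was 15.7 CPM in WT 2 and at most 0.52 CPM in any other tumor, and Apoa4, named after its values were seen, was 177 CPM in WT 2 and at most 0.106 CPM elsewhere. Tumor WT 2 was close to WT 9 for both chymases, with Mcpt2 at 32.5 and 33.3 CPM and Mcpt1 at 44.5 and 41.2 CPM. The 10 gastric genes measured summed to 502 to 5132 CPM in the WT group and 85.8 to 1883 CPM in the null group, highest in WT 6, where the parietal cell gene Atp4b was at 0, as in all tumors. The part of intestinal or gastric type epithelium in the Mcpt1 and Mcpt2 levels was not tested. The gut transcription factor Cdx2 was highest in null 18, at 22.6 CPM, and was 9.87 CPM in WT 3. As log2 CPM it was -0.396, 3.316, 3.445 and 2.874 in WT 2, 3, 6 and 9. In null 7, 14, 15, 18 and 23 it was -1.167, -0.694, 2.611, 4.507 and -1.718.

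Stromal and lymphoid lists were also lower in value in the tumors labelled null. All 8 fibroblast genes had a negative log2 fold change (median -0.89, 2 lower at an unadjusted p under 0.05). They summed to 2080 to 9075 CPM in the WT group and 350.4 to 4449 CPM in the null group. The low end was tumor null 7, and the other null tumors, at 3236 to 4449 CPM, lay within the WT range. All 8 endothelial genes were negative (median -0.86, 3 at an unadjusted p under 0.05), with sums of 229.7 to 501.5 and 52.0 to 249.5 CPM. Null 7 was again the lowest, and the other null tumors had 173.6 to 249.5 CPM. The 5 tested B and plasma cell genes were negative (median -1.98, 3 at an unadjusted p under 0.05), with sums of 11.4 to 45.8 and 1.16 to 11.5 CPM. The 5 tested T and NK cell genes were negative (median -0.76, 1 at an unadjusted p under 0.05), with sums of 5.05 to 10.4 and 3.07 to 8.68 CPM. Over all genes tested, 10.0% were lower and 7.64% higher at an unadjusted edgeR p under 0.05. No gene of these lists passed the adjusted edgeR threshold, and their part in the Mcpt1 and Mcpt2 difference was not tested.

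Other genes of mast cells were mostly lower in value in the tumors labelled null. Of 26 such genes 15 passed the filter, 13 of these had a negative and 2 a positive log2 fold change (median -0.66), and 0 passed the adjusted edgeR threshold, with 4 lower and 0 higher at an unadjusted p under 0.05, beside 10.0% of all genes lower and 7.64% higher. These 4 are shared with other leukocytes. Hpgds, which makes prostaglandin D2, had a log2 fold change of -1.47 (SE 0.42), Ltc4s, which makes leukotriene C4, -1.51 (SE 0.45), the granule proteoglycan Srgn -1.18 (SE 0.43) and the ectoenzyme Enpp3 -1.83 (SE 0.68), with edgeR adjusted p from 0.207 to 0.233. Other genes of this list did not pass the filter, among them the tryptase Tpsab1 (0 to 8 counts), the monoamine transporter Slc18a2 (0 to 6 counts) and the factor Gata1 (0 to 19 counts).

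Signalling genes downstream of the immunoglobulin E receptor showed the same direction in value. Of 15 genes, all tested, 13 had a negative and 2 a positive log2 fold change (median -0.67), and 0 passed the adjusted edgeR threshold, with 7 lower and 1 higher at an unadjusted p under 0.05, beside the same 10.0% and 7.64% of all genes. Fcer1g, the gamma chain that Fc gamma receptors also use, had a log2 fold change of -1.21 (SE 0.28), the adaptors Lat2 and Lat had -1.08 (SE 0.31) and -1.19 (SE 0.41), and the kinase Btk had -1.19 (SE 0.41), with edgeR adjusted p from 0.197 to 0.225. Beside them the 10 macrophage genes, whose cells share most of these genes, summed to 730 to 1850 CPM in the WT group and 424 to 912 CPM in the null group, with 8 of 10 lower at an unadjusted p under 0.05 (10.0% of all genes). Their part in these genes was not tested.

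Among signals that feed or place mast cells no difference passed the test. Of 15 genes 9 passed the filter, with 0 at an unadjusted edgeR p under 0.05 in either direction, beside 17.7% of all genes. The cytokine genes Il3, Il9 and Il13 had 0 counts in all 9 tumors. Kitl, the ligand of Kit, had 9.78 to 42.2 CPM in the WT group and 8.14 to 56.4 CPM in the null group. Il33, an alarmin that activates mast cells, had 41.5 to 129 CPM in the WT group and 3.07 to 65.0 CPM in the null group (log2 fold change -1.34, SE 0.63, edgeR adjusted p = 0.291). The integrin genes Itga4, Itgae and Itgb6 had log2 fold changes of -1.09, -0.92 and -0.66 (edgeR adjusted p from 0.284 to 0.469). Itgb6, part of an epithelial integrin that activates TGF-beta, is known to be needed for Mcpt1 in gut mast cells. Its level was 36.9, 10.9, 12.45 and 15.3 CPM in WT 2, 3, 6 and 9, and 3.73 to 17.1 CPM in the null group. The part of Itgb6 in the Mcpt1 level was not tested.

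The tested genes whose log2 CPM was most like that of Mcpt2 over the 9 tumors were Igsf5, Jsrp1, Arpc5, Bfar and Gng10, with Pearson's r of 0.97 each, Spearman's rho from 0.933 to 0.983, and r from 0.872 to 0.974 without WT 3 and null 7. None of them is on the mast cell lists read here, and all 5 had their highest value in WT 3 and their lowest in null 7. The genes most like Cpa3 were Timp2, Fzd2, Ntn1, Slc6a4 and Bmp7, with r from 0.94 to 0.95, rho from 0.865 to 0.949, and r from 0.846 to 0.931 without null 15 and WT 2, and all 5 were highest in WT 2 or null 15. Slc6a4, the serotonin transporter, had 2.29 CPM in WT 2, 8.96 CPM in null 15 and at most 0.867 CPM in the other tumors. Cpa3 itself had 57 counts in all and 0 in 3 of the 9 tumors, so its likeness rests on low counts. The genes named here were picked as the closest of all genes tested, so r is a description and carries no test.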

How the data were processed

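Whole tumor RNA of 9 tumors was measured by polyA RNA-seq. The authors deposited 1 table of estimated counts per gene, with Ensembl gene identifiers and symbols, made with Salmon 1.4.0 per the submitters' processing notes, which also name DESeq 2. No source used here gives the annotation release or the way transcripts were summed to genes. The estimated counts were rounded to whole numbers. Of 54453 rows, 23854 were at 0 in all tumors, and 16169 passed filterByExpr (minimum count 10, minimum total 15).

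Groups were compared with the edgeR 4.0.16 quasi-likelihood test in R 4.3.3 (TMM, no covariate, all 9 tumors), with Benjamini-Hochberg adjustment over all genes tested and a threshold of 0.05. Single genes were also tested by the exact two-sided permutation test of log2 CPM (prior count 2) over all 126 splits. Alternatives were RLE factors, no scaling, no filter, a strict filter (1 CPM in 4 tumors), a robust fit, DESeq2 1.42.0, limma 3.58.1 voom with array weights, the tumor identifier range (below or above 20000 in the labels) as covariate, and tumors left out. The edgeR, DESeq2, limma-voom and exact permutation tests were tested on simulated data. Levels per kb used GENCODE M21 transcript lengths.

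All 10 members are named. From each list of the pathway, up to 4 detected genes with the smallest edgeR p are named, and the 5 genes closest to Mcpt2 and to Cpa3 by Pearson correlation. Of the other cell lists only summed levels and fixed markers are given. Tpsab1, Slc18a2, Gata1, Prss34, Cd200r3, Il4, Kitl, Il3, Il9, Il13, Gzmd, Mrgprb2, Rgs13, Alpi, Rbp2, Fabp1, Apoa1 and Apoa4 fall outside that rule and were chosen after their values were seen. The members and lists were chosen with earlier results of these data known.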

Additional observations from a re-analysis of the deposited data

Results flagged for a closer look

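Mcpt2 in tumor WT 3 was 2511 CPM, far from the other 3 tumors labelled WT, which lay between 32.5 and 277 CPM. Ms4a2 was 0.0433 CPM in WT 9, which is 1 count, while the other WT tumors had 0. Ms4a2 was 0.273 CPM in null 15, which is 8 counts, while the other null tumors had at most 0.0744 CPM. These 3 came from 20 groups examined for a tumor that stood apart. The rate at which chance flags such a tumor was not measured for these values, and both Ms4a2 values rest on very few counts.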

How the results depend on the processing

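Mcpt1, Mcpt2 and Mcpt4 stayed lower in the tumors labelled null in every alternative that tested them. Over these the log2 fold change ran from -3.77 to -2.35 for Mcpt1 and from -6.05 to -2.69 for Mcpt2. Members past the adjusted threshold numbered 0 in edgeR (3 at an unadjusted p under 0.05), 2 with DESeq2 and 0 in all other settings. Genes of the other lists past it numbered 0 in edgeR and 12 with DESeq2, beside 0.0124% of all genes in edgeR and 3.58% with DESeq2. The 12 were not expressed as a share of those lists. Over all genes the count was 2 in edgeR, 7 without a filter, 642 with DESeq2, 6 with limma-voom, 0 with the identifier range as covariate, 0 without both WT 3 and null 7, and 0 to 1 with each tumor left out in turn. Members at an exact permutation p under 0.05 numbered 3 with all tumors, 2 to 3 with each tumor left out in turn (Mcpt4 lost in 7 of 9) and 1 without both WT 3 and null 7, where fewer splits exist. The median log2 fold change over the 6 tested members was -1.15, and -2.15 to -0.92 with each tumor left out in turn. The lowest is without null 15, where Mcpt4 and Tpsb2 did not pass the filter and the median is over 4 genes. Tpsb2 also dropped out without null 18 or null 23 and under the strict filter. Without both WT 3 and null 7 the median was -0.72. The sign of Kit turned with the identifier range as covariate (0.092) and, with each tumor left out in turn, in a range of -0.692 to 0.302, without WT 9 (0.302) and without null 7 (0.17). The sign of Hdc turned with limma-voom (0.019), without both WT 3 and null 7 (0.745) and, in a range of -1.185 to 0.537 with each tumor left out in turn, without WT 3 (0.537). Where not stated, the cause was not tested. Depth limits Cma1, Cpa3, Fcer1a and Ms4a2, which had 13 to 91 counts in all tumors together. No paired analysis was possible because the groups share no tumor number.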

Other observations

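Tumor null 15 also had the highest counts of Mrgprb2, Gata1 and Rgs13, mast cell genes picked after their values were seen. Other mast cell genes went otherwise: Tpsab1 was highest in null 23 (8 counts, against 3 in null 15). Slc18a2 was highest in WT 6 (6 counts, against 5 in null 15). The receptor gene Mrgprb2, known from connective tissue type mast cells, had 88 counts in null 15, 13 in WT 3 and at most 5 in any other tumor. Gata1 had 19 counts in null 15 and at most 3 elsewhere. Rgs13, a regulator of G protein signalling, had 25 counts in null 15, 14 in WT 3 and at most 3 elsewhere. Scaled for depth, Rgs13 was higher in WT 3 (1.20 CPM) than in null 15 (0.855 CPM). WT 3 thus held counts of Mrgprb2 and Rgs13 beside 0 counts of Cpa3.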
